A study of Homo sapiens with 4 samples.

Results

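The receptors for epidermal growth factor (EGF) and their ligands were examined as a set of 10 genes in ATAC-seq peak lists from human pancreatic progenitors treated with DMSO or I-BET151. The receptors were EGFR, ERBB2, ERBB3 and ERBB4, and the ligands were EGF, TGFA, AREG, EREG, HBEGF and BTC. Peaks of the 4 lists were merged into 164301 regions, and a region was counted for a gene when it overlapped the gene body of GENCODE release 44 extended by 20 kb on either side. EGFR was given a wider window of 150 kb and is counted apart. In all, 167 of the 164301 regions were kept, 113 of them at the other 9 genes and 54 at EGFR. The nearest start site of a protein-coding gene was that of the member gene itself for 124 of the 167 regions.

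The cells were pancreatic progenitors (PPs) derived from the human embryonic stem cell line named MEL1 in the labels, an established line, so all results come from 1 line. The study's methods list a MEL1 line with a GFP reporter allele at INS (MEL1 INS GFP/W) among those used, and the labels do not give this allele. All groups grew in EF6 medium, a DMEM and B27 base with the compound 616452 at 10 μM, an inhibitor of the TGF-β type I receptor kinase, bFGF at 10 ng/ml and EGF itself at 50 ng/ml. The DMSO group received the solvent, and the other group was kept for 7 days with 1 μM I-BET151, an inhibitor of the BET bromodomain proteins that bind acetylated histones. There were 2 ATAC-seq libraries per group, each from 50000 cells, and ATAC-seq marks open chromatin by inserting adapters with the Tn5 transposase. The labels do not say whether the 2 libraries of a group came from separate cultures, so every p-value refers only to the spread between these libraries.

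EGF family ligands are made as membrane-bound precursors that are cut free and bind the outer part of ERBB receptors, which then pair, phosphorylate one another and feed the RAS to MAP kinase and PI3 kinase to AKT pathways. ERBB2 has no known ligand of its own and ERBB3 has a weak kinase, so both act mainly as partners. In the developing pancreas, EGF receptor signalling is known to favour the growth of progenitors, and EGF is a usual part of media that keep them dividing.

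The DNA of the regions on which the results turn was read from hg38, for up to 100 bp on either side of the summit and on the strand of the member gene, with annotated UTR bases left out. Capitals mark exact matches, on either strand, to consensus motifs of AP-1 (TGANTCA), FOXA (TGTTTAC), ONECUT (ATTGAT), TEAD (GGAATG), the GATA family (AGATAA) and SP/KLF (GGGCGG), none of which contains another, and a sequence without capitals holds no match. These are the most enriched region gained with I-BET151 near EGFR, the region in EGFR intron 1 that fell in rank, the most enriched gained regions in ERBB4, the gained ERBB2 promoter, the most enriched gained region near TGFA, the region that rose in rank in the HBEGF window, and the neighbouring lost and gained regions at the BTC start site.
EGFR gained region, 85.6 kb upstream (chr7:54933316-54933516, + strand): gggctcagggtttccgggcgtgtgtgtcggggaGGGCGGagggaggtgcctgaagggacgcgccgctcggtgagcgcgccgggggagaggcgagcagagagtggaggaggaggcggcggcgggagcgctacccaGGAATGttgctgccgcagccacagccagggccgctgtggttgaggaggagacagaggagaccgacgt
EGFR intron 1 region, down in rank (chr7:55073987-55074187, + strand): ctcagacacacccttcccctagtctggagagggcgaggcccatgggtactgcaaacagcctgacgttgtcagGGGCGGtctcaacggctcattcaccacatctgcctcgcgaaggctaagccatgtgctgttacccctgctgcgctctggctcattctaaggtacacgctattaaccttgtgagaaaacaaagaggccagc
ERBB4 gained region, intron 1 (chr2:212192843-212193043, − strand): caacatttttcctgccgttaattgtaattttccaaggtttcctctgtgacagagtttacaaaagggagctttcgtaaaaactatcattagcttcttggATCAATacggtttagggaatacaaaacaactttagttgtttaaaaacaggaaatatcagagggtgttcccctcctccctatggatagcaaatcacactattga
ERBB4 gained region, intron 19 (chr2:211591520-211591720, − strand): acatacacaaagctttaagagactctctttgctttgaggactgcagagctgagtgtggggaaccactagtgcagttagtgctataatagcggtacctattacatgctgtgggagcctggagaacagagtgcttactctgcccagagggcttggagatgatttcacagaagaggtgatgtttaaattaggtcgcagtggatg
ERBB2 gained promoter region (chr17:39699874-39699975, + strand): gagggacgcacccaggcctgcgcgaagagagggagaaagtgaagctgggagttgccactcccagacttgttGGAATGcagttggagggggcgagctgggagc
TGFA gained region, 11.4 kb upstream (chr2:70565100-70565300, − strand): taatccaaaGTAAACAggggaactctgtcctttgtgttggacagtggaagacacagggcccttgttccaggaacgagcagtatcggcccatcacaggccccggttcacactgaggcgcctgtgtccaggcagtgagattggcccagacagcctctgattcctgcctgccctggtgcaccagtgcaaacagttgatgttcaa
HBEGF window region, up in rank (chr5:140357835-140358035, − strand): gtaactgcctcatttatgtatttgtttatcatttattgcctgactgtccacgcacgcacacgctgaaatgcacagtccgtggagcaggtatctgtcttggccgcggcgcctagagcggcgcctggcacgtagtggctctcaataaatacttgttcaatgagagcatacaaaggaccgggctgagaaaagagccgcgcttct
BTC lost region, intron 1 (chr4:74793886-74794086, − strand): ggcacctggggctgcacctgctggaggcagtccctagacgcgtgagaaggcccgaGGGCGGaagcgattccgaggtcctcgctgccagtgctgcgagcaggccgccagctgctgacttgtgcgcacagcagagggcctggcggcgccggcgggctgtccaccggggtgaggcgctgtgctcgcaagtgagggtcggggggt
BTC gained region, upstream (chr4:74794573-74794773, − strand): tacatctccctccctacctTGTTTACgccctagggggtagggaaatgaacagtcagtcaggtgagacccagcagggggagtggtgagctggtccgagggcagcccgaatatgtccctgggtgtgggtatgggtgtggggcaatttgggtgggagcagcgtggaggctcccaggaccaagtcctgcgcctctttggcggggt

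A region is here named gained where both I-BET151 libraries and neither DMSO library had it, and lost in the opposite case. Of all merged regions 17.0% (27885) were gained and 2.37% (3896) were lost. The lists held 82568 and 38295 peaks for DMSO and 84995 and 111324 peaks for I-BET151. The depths estimated from the lists went the other way, at 38.7 and 36.6 M reads for DMSO against 12.5 and 16.0 M reads for I-BET151. The median fold enrichment, which is the read pileup at the summit over the local background, was 3.88 and 4.08 in the DMSO lists and 5.56 and 6.03 in the I-BET151 lists. What these differences between libraries contribute to the results below was not tested, except by cutting the lists to equal length. The label was checked at 7 progenitor promoters, of which 5 (NKX6-1, SOX9, FOXA2, GATA4 and GATA6) were called in all 4 lists, while PDX1 had a peak with I-BET151 alone and ONECUT1 was missing from DMSO replicate 2. Among 14 promoters of other cell types, 8 were in no list, POU5F1, NANOG, NEUROG3, INS, GCG, PTF1A, PTPRC and CD3E, and 4 were in all 4 lists, LIN28A, CPA1, TWIST1 and COL1A1. CHGA was called in DMSO replicate 1 and both I-BET151 lists, and PDGFRB in the I-BET151 lists alone.

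More receptor and ligand regions were called after I-BET151 than after DMSO, as was so over all regions, of which 47.9% and 22.9% were called in the DMSO lists and 49.2% and 67.7% in the I-BET151 lists. At the 9 genes other than EGFR, 49 and 29 of the 113 regions were called with DMSO and 69 and 83 with I-BET151. Both I-BET151 lists were above both DMSO lists, which is the widest split that 2 against 2 libraries allow (exact two-sided permutation p = 0.33, the smallest possible). Of these regions 23 (20.4%) were gained and 2 were lost, beside 17.0% and 2.37% over all regions. At EGFR, 29 and 18 of 54 regions were called with DMSO and 28 and 38 with I-BET151, so the groups overlapped (exact permutation p = 0.67), and 8 regions (14.8%) were gained and 2 lost. The share gained was thus close to that of the genome for both sets. When each list was cut to the 38295 peaks strongest by −log10 p, 8 regions were gained and 4 lost at the 9 genes. At EGFR 2 were then gained and 2 lost. The shares over all regions at equal length are not given here, so these counts cannot be read as particular to the members. A call says that a site was open in enough of the cells, and fewer cells with an open site cannot be told apart from less opening per cell.

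**Figure D1:**
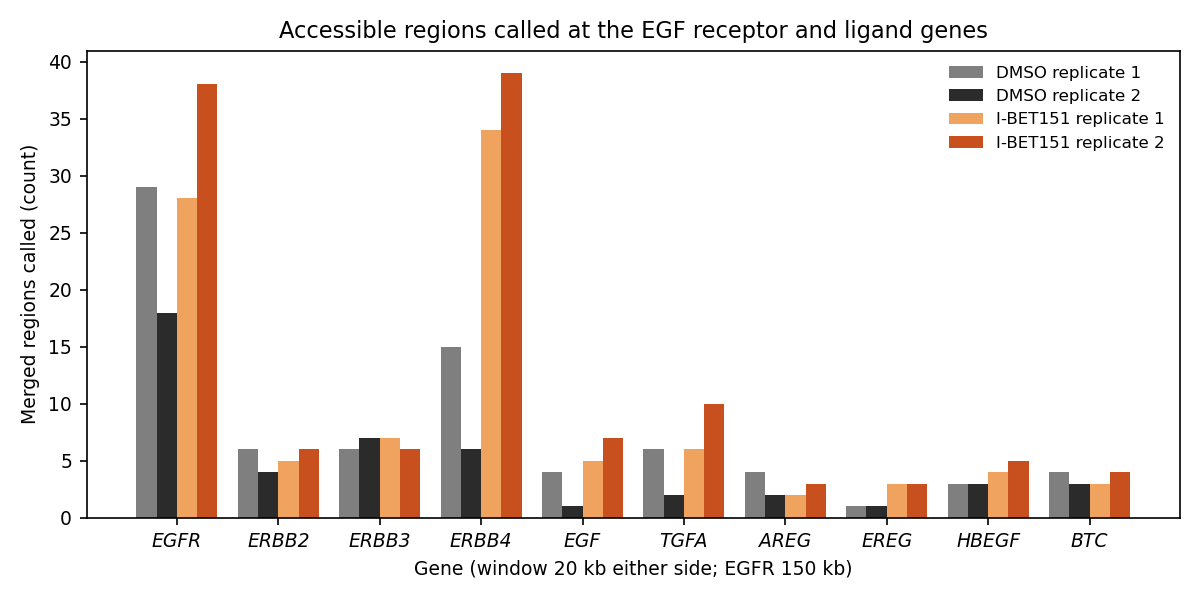
Number of merged regions called (y axis) at each of the 10 genes (x axis), with a bar for each of the 4 libraries. The widest gap in counts is at ERBB4, a gene of 1163 kb with 54 regions, with 15 and 6 regions in the DMSO lists and 34 and 39 in the I-BET151 lists.

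Of the 167 member regions 34 (20.4%) were called in all 4 lists, beside 15.6% of all regions, and 74 (44.3%) were called in a single list, beside 51.8% of all regions. The single calls fell in every library (21 in DMSO replicate 1, 2 in DMSO replicate 2, 18 in I-BET151 replicate 1 and 33 in I-BET151 replicate 2). In all, 31 were gained and 4 lost. The gained regions had pileups of 10 to 29 reads in I-BET151 replicate 1 and of 13 to 72 reads in replicate 2. The median over all peaks of those lists was 13 and 20 reads. Of the 31, 12 had a −log10 p of at least 10 in both I-BET151 lists, and the share over all gained regions is not given here. The lost regions had 12 to 41 and 13 to 34 reads in the DMSO lists. The smallest pileup that any peak of the series had was 10 and 11 reads in the DMSO lists against 5 and 6 in the others, and the lists give no value for a region below the calling threshold.

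EGFR (chr7:55019017-55211628, + strand), the receptor for EGF, TGFA and AREG among others, had its most enriched gained region well outside the gene. The region 85.6 kb before the start site (chr7:54933055-54933714) was in neither DMSO list and had 29 reads in I-BET151 replicate 1 and 41 reads in replicate 2. Counting error puts these pileups between 19.4 and 41.6 reads and between 29.4 and 55.6 reads (exact Poisson intervals, 95%). Its fold enrichment was 15.6 and 15.9, higher than 99.2% and 98.5% of the peaks of those lists, and the region was GC-rich (71.1%), as the sequence above shows. It was the most enriched of the 31 gained regions, and its nearest protein-coding start site was that of EGFR.

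The EGFR promoter did not show this pattern. The promoter region (chr7:55018537-55019621, summit 43 bp before the start site) was called in all 4 lists, with 37 and 36 reads after DMSO and 37 and 70 after I-BET151. Its fold was 4.65 and 4.20 with DMSO and 7.79 and 7.63 with I-BET151, while its percentile within the list was 72.2 and 54.0 against 76.0 and 67.8. The shift in rank was −0.15 ± 0.39 (SE; limma, adjusted p = 0.84), for which each library's ranks by fold among the 25627 shared regions (those in all 4 lists) were turned into normal scores. The printed percentiles are instead among all peaks of a list, so a percentile and a shift can differ in sign, as here. A further region at the edge of the promoter, in intron 1 at 1.2 kb after the start site, was called only in I-BET151 replicate 2, with 24 reads.

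EGFR intron 1 held 21 regions, 6 of them in all 4 lists, 4 gained and 0 lost. The region with the highest mean percentile of the window lay here, 12.3 kb after the start site, with 36, 33, 37 and 71 reads and percentiles of 92.5 and 80.3 (DMSO) and 80.8 and 84.8 (I-BET151). The region 55.1 kb after the start site (chr7:55073892-55074379) was the only member region to fall in rank. It had 46 and 33 reads with DMSO and 30 and 65 with I-BET151, and percentiles of 87.6 and 53.5 against 22.7 and 44.7. Its rank shift was −1.60 ± 0.39 (limma, adjusted p = 0.032). The fold itself overlapped between the groups (5.82 and 4.17 against 4.35 and 5.69), and per M reads the pileup was not lower but higher after I-BET151 (1.19 and 0.902 against 2.41 and 4.06). The local background at the 6 shared regions of this intron was 1.41 to 2.47 times the genome-wide background of the list in DMSO replicate 1, 1.53 to 2.27 times in DMSO replicate 2, 2.80 to 7.00 times in I-BET151 replicate 1 and 3.32 to 6.98 times in I-BET151 replicate 2. The neighbouring region at 58.9 kb had a shift of −1.44 ± 0.44 (adjusted p = 0.064) and the region 139 kb before the start site −1.41 ± 0.40 (adjusted p = 0.051), and neither passed.

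**Figure D2:**
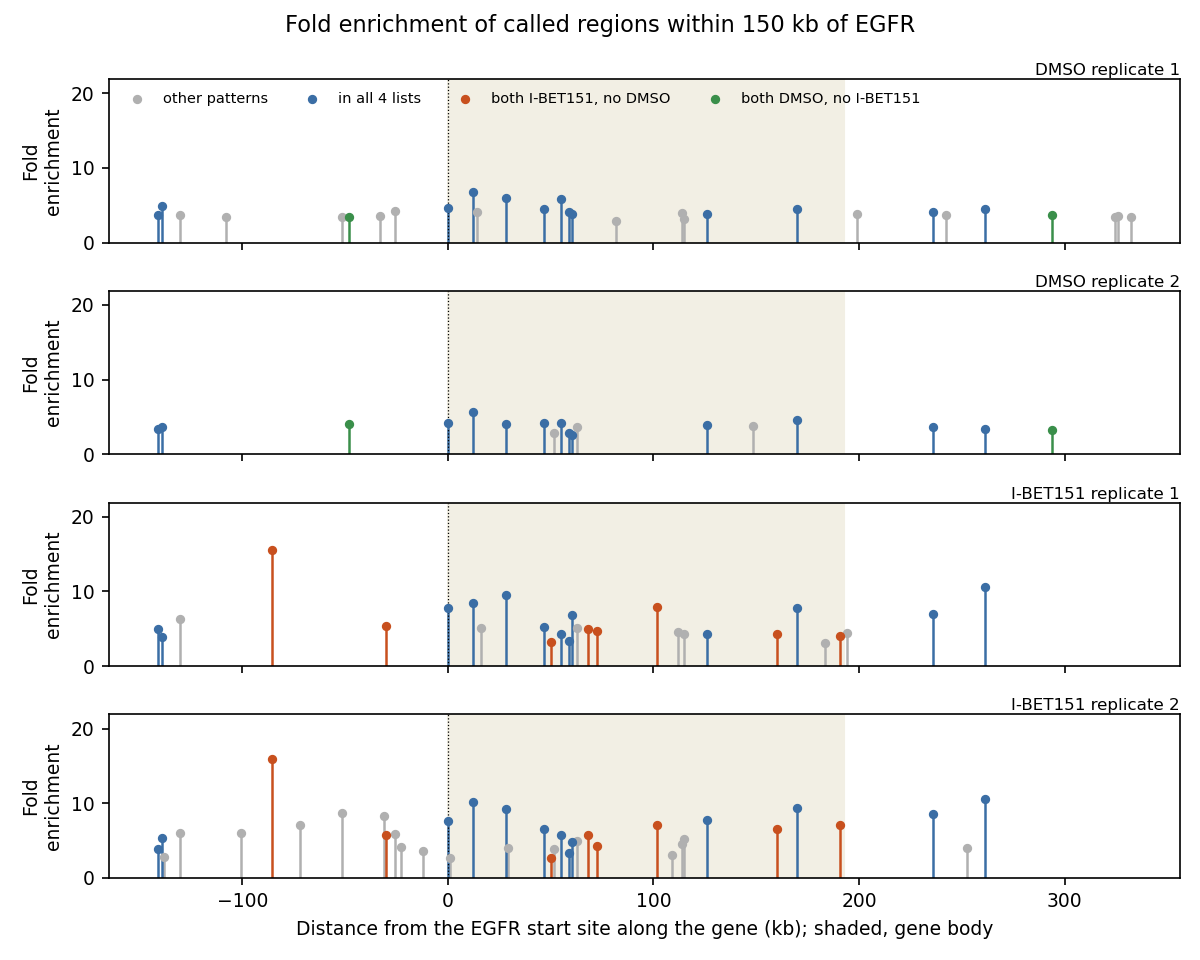
Fold enrichment (y axis) of each called region against its distance in kb from the EGFR start site (x axis, gene body shaded), with a panel for each library. The gained region 85.6 kb upstream, at 15.6 and 15.9, stands above all other regions of the window, and it has no counterpart in the DMSO panels.

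The other gained regions of EGFR that rank highest by fold lay 30.2 kb before the start site (11 and 29 reads, fold 5.41 and 5.75), in intron 1 at 68.1 kb (19 and 33 reads, fold 4.98 and 5.72) and at 102 kb (29 and 36 reads, fold 7.98 and 7.12), and in intron 19 at 160 kb (13 and 40 reads, fold 4.29 and 6.52). Both lost regions lay outside the gene and were weak. They had 12 and 16 reads (fold 3.36 and 4.09) in the window before the gene, and 14 and 13 reads (fold 3.71 and 3.25) beyond its end. Neither was counted when the window was narrowed to 20 kb, where EGFR had 31 regions, 6 gained and 0 lost. Within the wide window 17 regions lay upstream and 10 downstream of the gene, and 9 regions were called in DMSO replicate 1 alone.

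ERBB2 (chr17:39687914-39730426, + strand), the partner receptor without a ligand, gained its promoter call after I-BET151. The region over the start site (chr17:39699842-39700908) had 20 and 35 reads in the I-BET151 lists, with fold 4.63 and 4.53, and was in no DMSO list. Its percentiles were low, 28.0 and 24.9, and the nearest other region, 864 bp away, was called in DMSO replicate 1 alone with 22 reads. An upstream region 4.07 kb before the start site was shared, with 26, 22, 17 and 36 reads. The window also holds promoters of other genes. The region at the promoter of MIEN1 (chr17:39730074-39730877) spans the ERBB2 gene end, with its summit just past it. It had 19 and 21 reads with DMSO and 26 and 49 with I-BET151. Its percentile went from 13.1 and 20.2 to 85.7 and 84.3, and its rank shift was 1.70 ± 0.39 (limma, adjusted p = 0.025). The region with the highest mean percentile was the promoter of PGAP3 (37, 38, 25 and 74 reads), whose rank shift of 0.51 ± 0.43 did not pass (adjusted p = 0.49).

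ERBB3 (chr12:56076799-56103505, + strand), the partner receptor for neuregulins, had 1 region lost close to its start. Upstream of the start site a promoter region (chr12:56078984-56080319) was called in all 4 lists, with 33 and 39 reads after DMSO and 35 and 105 after I-BET151, and a rank shift of 0.23 ± 0.45 (limma, adjusted p = 0.78). The lost region (chr12:56080675-56081164), 713 bp into the gene in intron 1, had 41 and 34 reads with DMSO and fold 3.41 and 2.99. It was separated from the shared promoter region by 355 bp. The local background at that promoter region was 3.96 and 3.35 times the genome-wide value in the DMSO lists and 7.04 and 12 times in the I-BET151 lists. Its part in the loss of the call was not tested. The gained region of this window, with 25 and 72 reads, lay 1364 bp from the ZC3H10 start site. The region with the highest mean percentile, 168 bp from the PA2G4 start site, had 66, 78, 81 and 189 reads and a rank shift that did not pass (0.18 ± 0.38, limma, adjusted p = 0.81).

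ERBB4 (chr2:211375717-212538841, − strand), the receptor for neuregulins and for some EGF ligands, held 14 of the 23 regions gained at the 9 genes. Of its 54 regions 25.9% were gained and 0 were lost, beside 17.0% and 2.37% over all regions. Of the 14 gained regions, 13 lay in introns. Its gene body spans 1163 kb, and the region density of its window was 44.9 per Mb, beside 110 per Mb at EGFR and 53.2 per Mb over the chromosomes used. In DMSO 15 and 6 regions were called and in I-BET151 34 and 39. Over all regions the shares called were 47.9% and 22.9% in DMSO and 49.2% and 67.7% in I-BET151. The gained regions had 10 to 21 reads in I-BET151 replicate 1 and 13 to 34 in replicate 2 (median over all peaks 13 and 20 reads). Of the 14, 5 had a −log10 p of at least 10 in both lists. The most enriched lay in intron 1 at 346 kb from the start site (chr2:212192687-212193185), with 15 and 29 reads and fold 7.62 and 10.9. Next came a region in intron 19 at 947 kb (chr2:211591375-211592039), with 18 and 34 reads and fold 7.42 and 9.08. The others among the 5 highest lay 9.87 kb before the start site (14 and 29 reads), in intron 1 at 159.5 kb (14 and 15 reads) and in intron 14 at 870.0 kb (11 and 19 reads).

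**Figure D3:**
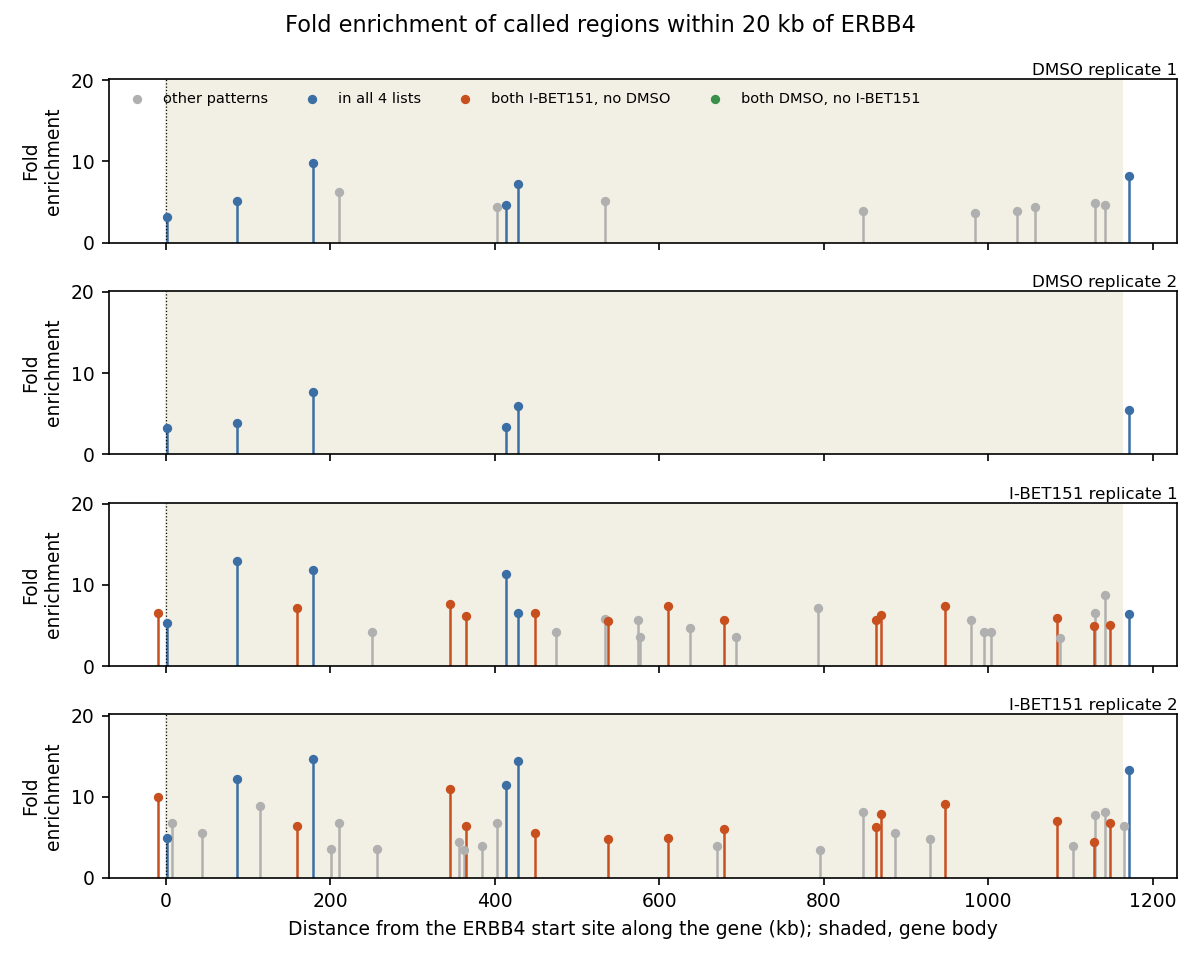
Fold enrichment (y axis) of each called region against its distance in kb from the ERBB4 start site along the gene (x axis, gene body shaded), with a panel for each library. Of the 14 gained regions 13 are spread over the gene body and 1 lies before it, and they reach fold 10.9, while the 6 regions in all 4 lists include the tallest of each panel.

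The ERBB4 promoter region (chr2:212536938-212539282) was called in all 4 lists with 16, 18, 20 and 29 reads, and its rank shift was 0.00 ± 0.41 (limma, adjusted p = 0.999). The region with the highest mean percentile, in intron 1 at 179 kb, had 37, 31, 43 and 86 reads and was above 93.3% of the peaks in each list, with a shift of −0.49 ± 0.39 (adjusted p = 0.46). A region in intron 1 at 86.9 kb had 19 and 15 reads with DMSO and 39 and 51 with I-BET151, and a region with its summit in coding exon 2, at 414 kb, had 17 and 13 against 25 and 40. Their rank shifts were 1.2 ± 0.41 and 1.33 ± 0.41, and neither passed (limma, adjusted p = 0.090 and 0.067).

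Among the ligands 7 of 41 regions (17.1%) were gained, the share of the whole series, with 4 of them in introns and 3 upstream of the start site. EGF (chr4:109912883-110013766, + strand), the founding ligand, had no region within 1 kb of its start site in any list. The nearest, 2.35 kb before it, was also the region with the highest mean percentile, with 27 reads in DMSO replicate 1, no call in DMSO replicate 2, and 17 and 64 reads with I-BET151. The 2 gained regions lay in intron 1 at 8.63 kb (11 and 13 reads, fold 6.24 and 5.56) and in intron 23 at 95.9 kb (15 and 19 reads, fold 5.30 and 4.34). In DMSO replicate 2 only 1 of the 8 EGF regions was called, against 4 in DMSO replicate 1.

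TGFA (chr2:70447284-70554193, − strand), which binds EGFR, had its promoter called in every list. The promoter region (chr2:70553388-70554586) had 32, 37, 33 and 72 reads, percentiles of 62.8, 65.9, 51.8 and 61.3, and a rank shift of −0.68 ± 0.39 (limma, adjusted p = 0.30). The gained region 11.4 kb before the start site (chr2:70564992-70565398) had 22 and 25 reads and fold 8.58 and 9.14, and was above 81.5% and 79.4% of the peaks of its lists. A weaker gained region in intron 2, at 55.6 kb, had 11 and 13 reads. Of the 14 TGFA regions 8 were called in a single list.

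AREG (chr4:74445136-74455005, + strand), an EGFR ligand induced by growth signals in many epithelia, had 0 gained and 0 lost regions. Its promoter region (chr4:74444939-74445765) had 21 and 23 reads with DMSO and 26 and 41 with I-BET151, and its percentile was 75.4 and 69.4 against 81.6 and 79.9 (rank shift −0.05 ± 0.39, limma, adjusted p = 0.95). Of its other regions, that at 29.9 kb had 14 reads in DMSO replicate 1 against 34 and 65 with I-BET151, whereas that at 11.3 kb had 26 and 20 reads with DMSO and was called in I-BET151 replicate 2 alone of the treated lists, with 21 reads.

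EREG (chr4:74365145-74388749, + strand), a ligand of EGFR and ERBB4, had a shared promoter region (chr4:74364882-74365515) with 17, 13, 17 and 18 reads and a rank shift of 0.31 ± 0.41 (limma, adjusted p = 0.68). This was the sole EREG region in the DMSO lists. Its gained region in intron 1, at 5.98 kb, had 11 and 15 reads and fold 5.17 and 5.98.

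HBEGF (chr5:140332843-140346603, − strand), the heparin-binding ligand of EGFR and ERBB4, had the largest rank shift among the promoters. Its promoter region (chr5:140346070-140346995) had 30 and 22 reads with DMSO and 30 and 52 with I-BET151, and its percentile was 28.5 and 2.34 against 72.8 and 57.6. The rank shift of 1.19 ± 0.44 did not pass (limma, adjusted p = 0.11). A region 11.3 kb before the start site (chr5:140357432-140358167), whose nearest start site is that of the transporter gene SLC4A9, had 34, 32, 40 and 85 reads and a percentile of 65.7 and 53.5 against 93.3 and 97.0, and its rank shift of 1.43 ± 0.38 passed (limma, adjusted p = 0.043). The gained region 16.8 kb before the start site, inside SLC4A9, had 27 and 44 reads and fold 8.0 and 7.88.

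BTC (chr4:74744759-74794523, − strand), betacellulin, a ligand of EGFR and ERBB4, had 1 lost and 1 gained region side by side at its start site. The lost region (chr4:74793588-74794239), in intron 1 at 537 bp after the start site, had 14 and 18 reads with DMSO and fold 3.29 and 3.61. The gained region (chr4:74794259-74794879), 150 bp before the start site, had 14 and 19 reads with I-BET151 and fold 5.51 and 6.35. Only 19 bp separated the pair, so the BTC start site lay in or beside a called region in all 4 lists. The lost region lay wholly inside the gene, and the gained region spanned the start site. Its summit 150 bp upstream is that of I-BET151 replicate 2, which had the higher fold, and that of replicate 1 is not given. The remaining shared region, in intron 2 at 25.4 kb, had 24, 21, 12 and 30 reads and the highest mean percentile of the window, with a rank shift of −0.98 ± 0.38 (limma, adjusted p = 0.13).

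A locus score, the mean percentile over the regions within 20 kb of a gene with 0 for a region not called, put both I-BET151 lists above both DMSO lists for 8 of the 10 genes. Over all 18871 genes scored in the same way this held for 51.3%, and the reverse for 2.96%, so a higher score was common across the genome. The difference between group means was 29.9 for EREG, 29.0 for HBEGF, 23.3 for EGF, 22.1 for ERBB4, 20.5 for ERBB2, 13.7 for TGFA, 6.55 for EGFR and 2.63 for ERBB3, beside a median of 10.7 over all genes. The EREG score was 10.3 ± 7.54 with DMSO and 40.2 ± 0.807 with I-BET151, and the HBEGF score was 17.3 ± 6.21 and 46.3 ± 1.22 (SD, n = 2 libraries). This placed their differences above those of 93.4% and 92.6% of genes. These scores rest on few regions, 4 at EREG and 6 at HBEGF. Only 1 of the EREG regions was called with DMSO, so the others entered through I-BET151 calls alone and counted as 0 in the DMSO scores. With only the regions nearest to the gene's own start site, the difference was 12.3 for HBEGF and 7.22 for ERBB2. Without DMSO replicate 2 the difference was 11.2 for EGF and 1.42 for EGFR, and without DMSO replicate 1 it was 40.4 and 13.0. ERBB3 scored 28.0 ± 1.37 and 30.6 ± 1.01, a difference above that of 23.4% of genes. The groups overlapped for AREG (46.3 ± 16.8 and 45.3 ± 4.88) and for BTC (38.7 ± 17.0 and 40.1 ± 16.8), where the scores of the 2 libraries of a group lay far apart. For each of the 8 genes the exact permutation p was 0.33, the smallest that the design allows, and no gene can pass a threshold of 0.05. With lists of equal length only ERBB2 (12.4) and HBEGF (18.2) kept both I-BET151 lists above both DMSO lists. The groups then overlapped for ERBB4 (6.17), EREG (10.1), EGF (12), TGFA and AREG. The differences turned negative for EGFR, ERBB3, TGFA and BTC. The shares over all scored genes at equal length are not given here, so this outcome cannot be read as particular to these genes.

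**Figure D4:**
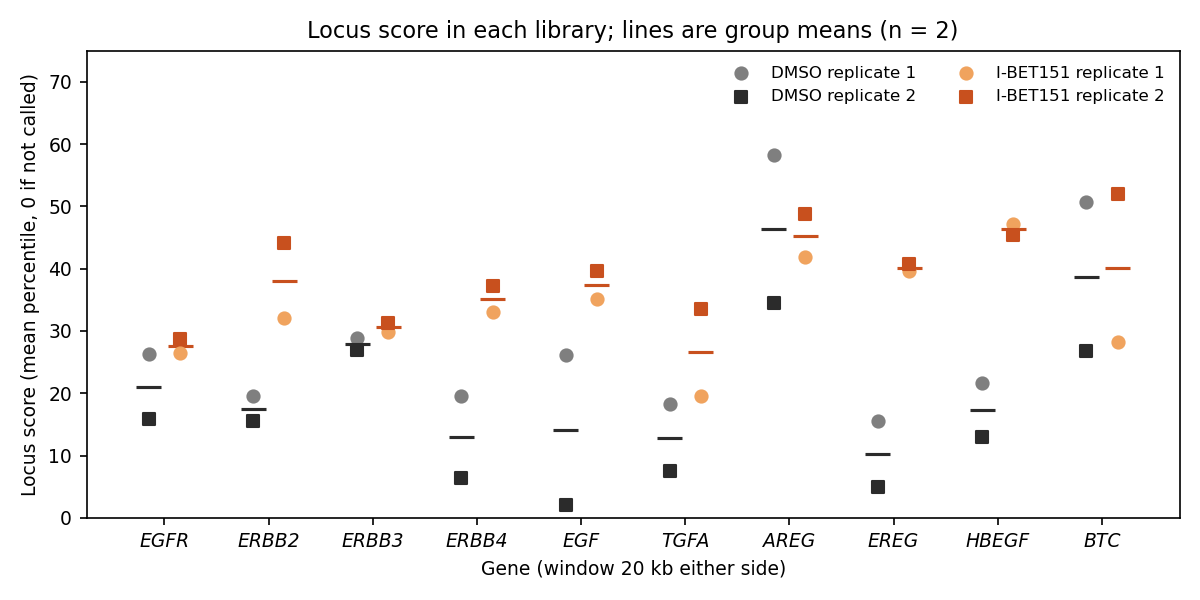
Locus score (y axis, mean percentile) of each library at the 10 genes (x axis), with a line at each group mean (n = 2 libraries). The I-BET151 points lie above the DMSO points except at AREG and BTC, and the ERBB3 points lie within a narrow band from 27.0 to 31.3.

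The rank shift asks whether a region called in all 4 lists moved relative to the other regions called in all 4 lists. This takes out a change in a library that keeps the order of its regions by fold. A difference between libraries that alters this order, such as one in local background, is not taken out, and its part was not tested. Over the 25627 such regions of the genome, 3.41% rose and 1.96% fell (limma, adjusted p under 0.05). Of the 34 member regions, 2 rose (in the ERBB2 and HBEGF windows, nearest to MIEN1 and SLC4A9) and 1 fell (in EGFR intron 1), and 12 were under an unadjusted p of 0.05, beside 24.9% of all such regions. Of the 34 shifts 16 were positive, beside 48.4% of all, and their median was −0.10, beside −0.03 over all regions. None of the receptor and ligand promoters in all 4 lists passed, and the largest shift among them was that of HBEGF. None of the 3 calls held when regions were ranked by −log10 p or compared by centred pileup. Per M reads and without centring, all 34 member regions were higher after I-BET151 (21 at the 9 genes and 13 at EGFR past the threshold). In the same-numbered libraries their median shift was 1.63 and 2.30 on the log2 scale, beside 1.57 and 2.25 over the 25627 regions. The share of the 25627 regions past that threshold is not given here, so the count cannot be read as particular to the members.

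**Figure D5:**
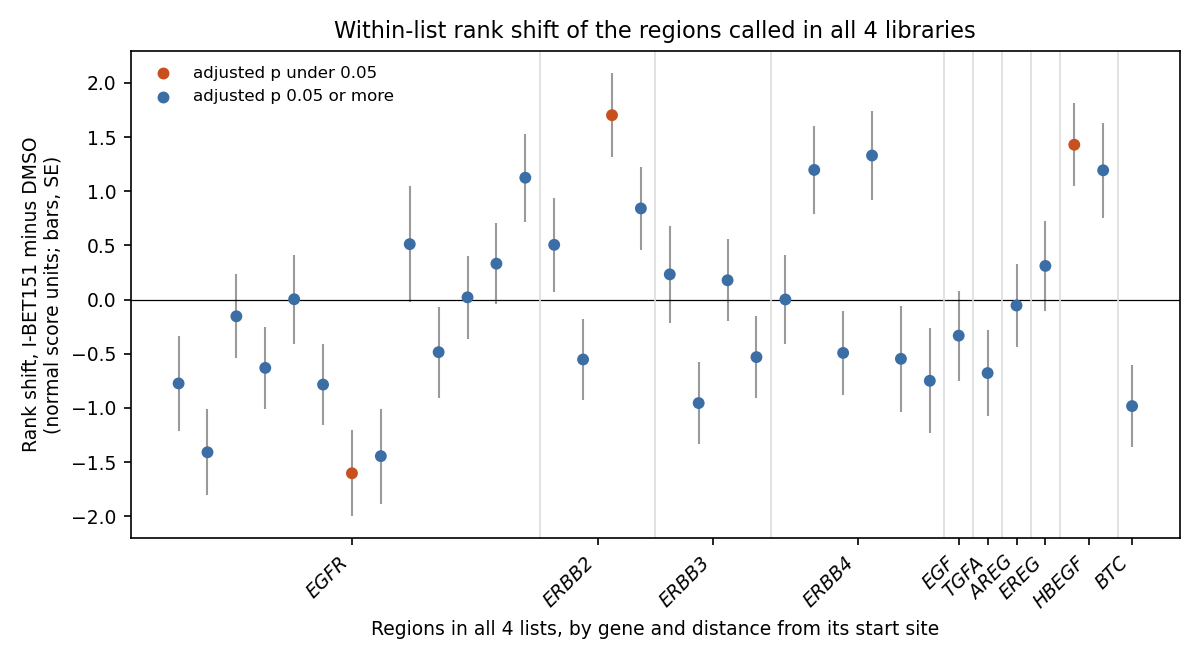
Rank shift (y axis, I-BET151 minus DMSO in normal score units, bars SE) of the 34 regions in all 4 lists, ordered by gene and by distance from its start site (x axis). The 3 regions with an adjusted p under 0.05 lie at −1.60 (EGFR), 1.70 (ERBB2 window) and 1.43 (HBEGF window), and shifts of either sign are spread over the other regions.

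The member regions held most of the motifs searched at shares near those of the whole series, counted within 100 bp of each summit. SP/KLF boxes were in 12.6% of the 167 member regions and 10.4% of all regions, FOXA motifs in 7.78% and 4.57%, ONECUT motifs in 7.19% and 9.22%, GATA motifs in 15% and 14.2%, TEAD motifs in 15.6% and 15%, and AP-1 motifs in 7.19% and 11%. SP/KLF boxes were in 10 of 54 EGFR regions and in 1 of 54 ERBB4 regions, whereas GATA motifs were in 5 and 15. A match to the CTCF consensus was in 0 of the 167 and in 1.86% of all regions. Among the sequences above, the gained EGFR region held a TEAD and an SP/KLF match, the gained TGFA and BTC regions a FOXA match each, and the gained ERBB4 region of intron 1 an ONECUT match. These are matches of letters and were not tested for binding.

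Promoters of 51 other genes of the EGF pathway, from further ligands to feedback inhibitors, were mostly called in every library. A region lay within 1 kb of the start site of 50 of them in at least 1 list, and of 44 in all 4 lists, beside 73.8% and 53.2% of all protein-coding genes. The promoter of EPGN, the remaining EGF-like ligand, was not called. Promoters of 4 genes were gained and 0 lost, beside 10.2% and 0.602% of all protein-coding promoters with a region. The gained promoters were those of the neuregulins NRG2 (21 and 28 reads, fold 7.59 and 7.81) and NRG4 (8 and 16 reads, fold 4.68 and 6.75), of the kinase AKT1 (21 and 36 reads, fold 4.4 and 4.79) and of the cyclin CCND1 (20 and 34 reads, fold 3.19 and 3.23). Of the promoters in all 4 lists 1 rose and 0 fell in rank, beside 2.80% and 0.947% over all such promoters. This was HRAS, the RAS protein that passes the receptor signal to RAF kinases, with 36 and 37 reads and percentiles of 20.1 and 36.0 after DMSO against 38 and 87 reads and percentiles of 88.0 and 88.4 after I-BET151 (rank shift 1.55 ± 0.40, limma, adjusted p = 0.038). The call was lost with centred pileup (0.14 on the log2 scale, limma, adjusted p = 0.69) and with ranks by −log10 p. All 10 promoters of negative feedback genes, such as SPRY2 and DUSP6, and all 9 of the RAS, RAF and MAP kinase genes were called in every list, where the share over all protein-coding genes is the 53.2% given above.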

How the data were processed

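ATAC-seq peak lists of 4 libraries (2 DMSO, 2 I-BET151) were analysed. The authors used Bowtie2 (v2.2.5) to align paired reads to hg38, took out duplicates and mitochondrial reads, and ran MACS2 (v2.1.2) on every library separately, without a control. The deposited lists give for each peak a display score (not used), a fold enrichment at the summit (the ratio of pileup over local background), and the p-value and q-value as −log10. The deposited lists reach a q-value of 0.05, whereas the methods state a p-value of 1e-05 and a read extension of 200 bp. MACS2 makes no peak shorter than its extension, and the shortest was 200, 233, 200 and 256 bp (DMSO, then I-BET151).

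Fold and p-value together fix the pileup in whole reads, which was recovered for 100% of peaks (−log10 p within 0.001). Depth was estimated from the genome-wide background, the default genome size of MACS2 and the shortest peak of each list, taken as its read extension. It would rise with a larger background or genome size and fall with a longer extension. Pileups this small carry a counting error that the SD of 2 libraries does not hold, and duplicates were removed, so Poisson intervals cover counting error only.

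Peaks of chromosomes 1 to 22, X and Y were merged at an overlap of 1 bp. Start sites and introns were those of the Ensembl canonical transcript. Calls, locus scores and motifs came from Python 3.11.15 with pandas 2.3.3, numpy 2.4.6 and scipy 1.17.1. For rank shifts, each library's ranks by fold among the regions shared by all 4 lists were converted to normal scores and fitted by limma 3.58.1 (R 4.3.3, lmFit, eBayes), with Benjamini-Hochberg adjustment over 25627 regions. Single values were compared by exact two-sided permutation tests, which cannot go below p = 0.33 here. In simulated data 200 of 25627 regions were shifted by 1.5 on the log2 scale of fold, before conversion to normal scores and at a fixed level of noise. There limma called 99.5% of them with 19 other calls, and 0 when nothing was shifted. This size is not in the score units of the rank shifts given above.

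The 10 genes, the 51 pathway genes, the marker lists, the tests and the alternatives were chosen with earlier results of these data known. Regions named for a gene were its promoter region, every region past limma, every gained or lost region (the 5 with the highest lower-of-2 fold where there were more than 5), and the region with the highest mean percentile. Other regions, named for an unadjusted p or for their place, were chosen after their values were seen. Groups and replicate numbers came from the labels. Nothing in the sources used here says that same-numbered libraries were made together. Alternatives were stricter peak thresholds, equal list lengths, an overlap of at least 50%, other windows, other rank measures, the replicate number as a block and leaving out each library. Other experiments of the study were not used here. A further marker of the progenitor list is not reported here.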

Additional observations from a re-analysis of the deposited data

How the results depend on the processing

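The higher locus score with I-BET151 kept its direction for ERBB2, ERBB4, EGF, EREG and HBEGF under every alternative tried, but not its size. With lists of equal length it was 6.17 for ERBB4, 10.1 for EREG and 12 for EGF with overlapping groups. The genes with both I-BET151 lists above both DMSO lists were then 2, and at 50 kb they were 4, with overlap for EGF (10.4) among others. With only the regions nearest to the own start site, ERBB2 was 7.22 and HBEGF 12.3. With lists of equal length it reversed for EGFR (−8.74), ERBB3 (−8.45), TGFA (−1.43) and BTC (−26.4), the difference in EGFR regions called became −1, the 9 genes had 8 gained, 4 lost and 1 down in rank, and EGFR had 2 gained. AREG turned positive at a −log10 p of at least 10 (22.5) or 5 (0.927), with ranks by −log10 p (7.75), with the gene body alone (8.38) and at 50 kb (5.54). ERBB3 turned negative with the gene body alone (−4.13) or with only the regions nearest to its own start site (−3.70). At a −log10 p of at least 10 the 9 genes had 1 lost and 1 up in rank and EGFR 0 lost, and at 5 EGFR had 1 lost and 2 down in rank, as with an overlap of at least 50% (2 down). EGFR had 0 lost with the gene body alone, 1 at 50 kb and 0 at 20 kb. With ranks by −log10 p and with centred pileup, 0 regions were up at the 9 genes, 0 were down at EGFR and 0 pathway promoters were up. With pileup per M reads not centred, 21 regions were up at the 9 genes, 13 up and 0 down at EGFR, and the EGFR intron 1 region reversed to 1.59. Shares over all regions or genes under these alternatives are not given here, and the causes were not tested.

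Without 1 library in turn, a region needs a call in only the remaining library of that group, so the counts loosen. At the 9 genes 26 to 46 regions were gained (46 without I-BET151 replicate 1 and 40 without I-BET151 replicate 2), 2 to 14 lost (14 without DMSO replicate 2 and 4 without I-BET151 replicate 2), 0 to 4 up and 0 to 2 down in rank. At EGFR 9 to 18 were gained (18 without I-BET151 replicate 1), 2 to 11 lost (11 without DMSO replicate 2), 0 to 2 up and 0 to 3 down. The difference in regions called was 27 to 47 at the 9 genes and 4 to 15 at EGFR (4 without DMSO replicate 2 and 4.5 without I-BET151 replicate 2). The locus score difference ranged from −12.9 to 14.5 for AREG, from −10.6 to 13.4 for BTC, from 1.42 to 13.0 for EGFR, from 1.85 to 4.00 for ERBB3 and from 8.36 to 24.3 for TGFA, the lowest of the last 3 without DMSO replicate 2 and the highest without DMSO replicate 1. The 3 rank calls kept their direction but were lost in 8 of 12 such fits (limma, adjusted p 0.053 to 0.30), and all 3 were lost without either DMSO library. In these fits the lone library is assumed to vary like the others.

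Whether the replicate numbers pair the libraries was not settled. The deviations of same-numbered libraries correlated at −0.14 over 25627 regions. With 2 libraries per group this value cannot exclude that same-numbered libraries were made together. Minimum peak lengths went with the numbers, at 200 bp for number 1 of either group against 233 bp (DMSO) and 256 bp (I-BET151) for number 2. With the number as a block, limma called 2 up and 0 down at the 9 genes and 3 down at EGFR, where the regions 58.9 kb after and 139 kb before the start site passed as well (adjusted p = 0.038 and 0.045). A block cannot move a locus score difference in this balanced design. Within the same-numbered pairs it was 0.233 and 12.9 for EGFR, 1.37 and 26.1 for TGFA, −16.3 and 14.3 for AREG and −22.5 and 25.3 for BTC. Within pair 1, 40 regions were called with I-BET151 only and 20 with DMSO only at the 9 genes (13 and 14 at EGFR), and within pair 2, 57 and 3 (23 and 3 at EGFR). With the numbers crossed as a block, limma called 5 up and 0 down at the 9 genes and 1 up and 3 down at EGFR. The crossed block, the uncentred pileup and the 20 kb window for EGFR were chosen after seeing the data. Pathway promoters were recomputed only with the block, by −log10 p and with centred pileup. Pileups near the smallest callable ones limit what an absent call can show, and 2 libraries per group allow no permutation p under 0.33.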

Other observations

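Beyond the gained, lost and shared regions, 98 of the 167 member regions had other patterns. Of these, 13 had a call with I-BET151 in both libraries and in 1 DMSO library, 2 in both DMSO lists and in 1 I-BET151 list (11.3 kb after the AREG start site and 60.5 kb after that of BTC), and 9 in 1 list of each group. Regions in both I-BET151 lists and a single DMSO list include the region 2.35 kb before the EGF start site and a region in EGF intron 20 at 86.2 kb, which had 15 reads in DMSO replicate 1 and 17 and 42 reads with I-BET151. They also include a TGFA region 3.55 kb before the start site, with 28 reads in DMSO replicate 2 and 30 and 52 reads with I-BET151, and a BTC region 11.3 kb before the start site, with 18 reads in DMSO replicate 1 and 8 and 17 with I-BET151. These regions were chosen after their values were seen, and no test was made of them.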
